A study of Mus musculus with 18 samples.

Results

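Chemokine ligands are small secreted proteins that attract cells carrying the matching receptor. The 10 ligand genes described here, Cxcl2, Cxcl3, Cxcl10, Ccl1, Ccl3, Ccl4, Ccl5, Ccl20, Ccl22 and Xcl1, were chosen by name among 45703 genes of a TPM table. TPM is a length-scaled share, with each library summing to 1000000, so a shift in other genes between libraries moves it too. All 10 passed the filter on low values, which kept 14229 genes that reached 1 TPM in 3 or more of the 18 libraries. Ccl22 did so in 6 libraries, all of them from ACLYKO cultures, and Cxcl10 in 8, all of them without acetate. The remaining members did so in 18 of 18.

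Polyadenylated RNA came from mouse Th17 cells, CD4+ helper T cells that make IL-17, differentiated in culture from naive T cells in 6 groups of 3 libraries each. The genotypes were wild type (WT), Slc2a3-fl/fl Cd4-cre (GLUT3KO, lacking a glucose transporter) and Acly-fl/fl Cd4-cre (ACLYKO, lacking the enzyme that makes acetyl-CoA from citrate), each without and with acetate, from which cells can make acetyl-CoA by another enzyme. The background is labelled C57BL/6 in 12 libraries, and the number after the slash differs from sample to sample in the other 6, which are 5 ACLYKO libraries and GLUT3KO with acetate replicate 3. Polarization lasted 48 h and acetate 24 h, at 20 mM in the sample protocols and 10 mM in the text on the series. Every group, controls included, is listed with 5 h of restimulation by PMA and ionomycin in the presence of Brefeldin A and monensin, which hold cytokines inside the cell, a step that the text on the series does not mention. Cd4-cre acts from thymic development on, in CD8 as well as CD4 T cells, and the wild-type cells are not labelled as carrying it. The labels do not tie the replicates to separate mice or cultures, and p-values measure the spread between these libraries, which may be technical.

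Libraries held 18.7 to 30.1 M reads assigned to genes (M, 1000000). Slc2a3 was at 17.7 ± 2.91 TPM (mean ± SD, n = 3) in WT and 6.17 ± 2.10 in GLUT3KO, and Acly at 396 ± 4.27 in WT and 11.3 ± 3.85 in ACLYKO, both in the direction of the labels. The 5 T cell markers summed to 1166 to 2231 TPM and the 4 Th17 markers (Il17a, Il17f, Il23r, Ccr6) to 1337 to 1532 TPM in WT, 265 to 345 in GLUT3KO and 339.6 to 482 in ACLYKO. With acetate the Th17 sum was 3039 to 4042 TPM in WT, 2159.5 to 2534 in GLUT3KO and 975 to 1219.9 in ACLYKO. These sums are mostly Il17a and Il17f, with medians over the libraries of 637 and 548 TPM, against 5.21 for Il23r and 70.6 for Ccr6. Ccr6 alone averaged 47.9 TPM in WT, 52.4 in GLUT3KO and 21.3 in ACLYKO. With acetate Ccr6 averaged 89.6 TPM in WT, 79.8 in GLUT3KO and 122 in ACLYKO. Without and with acetate the Th17 sums of both knockouts lay below those of WT, and their part in the loss results below was not tested. ACLYKO replicate 1 stood apart from its group: on the axis that held 63.6% of the variance within groups it scored -90.2 against 36.6 and 53.5 for replicates 2 and 3. Where leaving it out changed a member's call, the value without it is given beside the result. In comparisons that do not use untreated ACLYKO, leaving it out kept the log2 change. There only the shared estimate of the spread, and so the SE and adjusted p, moved. Where a ligand is lower in a culture, fewer producing cells and less RNA per cell cannot be told apart.

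Each ligand signals through G protein-coupled receptors on the cells it attracts. In Th17 biology CCL20 is best known, since Th17 cells make it and also carry its receptor CCR6, while CXCL2 and CXCL3 draw neutrophils through CXCR2. CCL3, CCL4 and CCL5 draw T cells and monocytes, and XCL1 calls cross-presenting dendritic cells that carry XCR1. In activated T cells many of these genes are switched on within hours by NF-kB, NFAT and AP-1, factors that PMA and ionomycin drive.

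The genes lie in family clusters of the mouse genome (build GRCm38.p6). Cxcl3 (chr5:90786101-90788093), Cxcl2 (chr5:90903899-90905938) and Cxcl10 (chr5:92346638-92348889) are on chromosome 5. Ccl1 (chr11:82176666-82179812), Ccl5 (chr11:83525778-83530518), Ccl3 (chr11:83647843-83649378) and Ccl4 (chr11:83648624-83664683) are on chromosome 11. Ccl20 (chr1:83116766-83119167) and Xcl1 (chr1:164931644-164935522) are on chromosome 1 and Ccl22 (chr8:94745684-94751388) on chromosome 8. The annotated spans of Ccl3 and Ccl4 overlap by 755 bases on opposite strands. The kit keeps the strand, but the strand setting of the counting is not stated, and reads in that stretch cannot be assigned with certainty. Cxcl2 and Cxcl3 shared 101 of their 2209 and 3637 stretches of 75 bases, the read length, and no other member shared any with another gene.

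The RefSeq promoter table of the same build held 8 of the 10 genes, all but Ccl4 and Ccl5. The 250 bases before the start are shown for 4 members, 5′ to 3′ on the gene's own strand: Cxcl2 and Cxcl3, which fell the most under loss of GLUT3 without acetate, and Ccl1 and Xcl1, which rose the most there. Capitals mark matches to the NF-kB consensus and to TATAAA.
Cxcl2, chr5:90903649-90903898, plus strand: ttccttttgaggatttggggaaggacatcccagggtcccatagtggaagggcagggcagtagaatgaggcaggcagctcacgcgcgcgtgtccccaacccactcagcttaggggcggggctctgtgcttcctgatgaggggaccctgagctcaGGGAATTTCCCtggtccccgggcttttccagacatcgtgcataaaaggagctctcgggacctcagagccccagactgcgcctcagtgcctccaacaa
Cxcl3, chr5:90785851-90786100, plus strand: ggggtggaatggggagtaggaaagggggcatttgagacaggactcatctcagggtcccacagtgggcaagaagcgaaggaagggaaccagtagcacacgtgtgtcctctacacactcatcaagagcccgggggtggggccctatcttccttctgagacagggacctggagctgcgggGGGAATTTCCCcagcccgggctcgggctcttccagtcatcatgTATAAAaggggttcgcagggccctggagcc
Ccl1, chr11:82179813-82180062, minus strand: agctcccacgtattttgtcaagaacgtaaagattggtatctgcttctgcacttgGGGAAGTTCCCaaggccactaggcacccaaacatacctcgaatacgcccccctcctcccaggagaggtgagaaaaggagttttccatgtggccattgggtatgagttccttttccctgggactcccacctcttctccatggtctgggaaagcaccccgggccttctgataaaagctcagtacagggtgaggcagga
Xcl1, chr1:164935523-164935772, minus strand: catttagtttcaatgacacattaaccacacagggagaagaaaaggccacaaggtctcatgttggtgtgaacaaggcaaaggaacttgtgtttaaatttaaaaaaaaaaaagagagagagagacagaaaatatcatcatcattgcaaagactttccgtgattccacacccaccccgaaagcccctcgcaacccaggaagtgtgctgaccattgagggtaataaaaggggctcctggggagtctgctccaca
Cxcl2 and Cxcl3 carried the same 10 letters, GGGAATTTCC, starting 97 and 73 bases before the start, and in both a match on the other strand overlapped it 1 base further on. Ccl1, which moved the opposite way, had a match too (GGGAAGTTCC, 196 bases before the start). Xcl1 held no match to any of the 5 motifs searched. Windows from 250 bases before to 50 bases after the start were searched on both strands. The NF-kB consensus was in 5 of the 8 windows (Cxcl2, Cxcl3, Cxcl10, Ccl1 and Ccl20) against 8.46% of 32851 promoters. The NFAT core GGAAAA was in 4 of 8 against 23.4%, and in Ccl20 1 copy lay within the NF-kB match. AP-1 (TGANTCA) and the interferon-stimulated response element were each in 1 of 8, both in Cxcl10, against 7.81% and 3.43%. TATAAA was in 1 of 8, Cxcl3, against 13.6%. A match is a run of letters and says nothing of binding in these cells.

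In WT cells without acetate Ccl20, Ccl4 and Ccl3 led, at 911 ± 221, 483 ± 75.7 and 465 ± 26.1 TPM (mean ± SD, n = 3). Ccl4 and Ccl3 overlapped each other and lay below every Ccl20 library. The 3 made up 42.0%, 22.5% and 21.6% of the summed TPM of the 10 genes. Xcl1 (104 ± 36.3 TPM) and Cxcl3 (102 ± 6.10 TPM) came next with ranges that overlapped, then Ccl5 (47.9 ± 13.7), Cxcl2 (36.8 ± 9.28), Ccl1 (6.07 ± 2.26), Cxcl10 (2.33 ± 0.872) and Ccl22 (0.319 ± 0.332). The sum was 2159 ± 186 TPM in WT, 5121 ± 847 in GLUT3KO and 3811 ± 702 in ACLYKO. With acetate it was 3168 ± 367 in WT, 11817.5 ± 1857 in GLUT3KO and 4274 ± 900.3 in ACLYKO. In GLUT3KO without acetate Xcl1 held 33.5% of the sum, against 4.83% in WT, while Cxcl3 held 0.189% against 4.73%. In ACLYKO with acetate Ccl3 was the leading ligand with 43.3%, against 19.6% in ACLYKO without it.

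**Figure D1:**
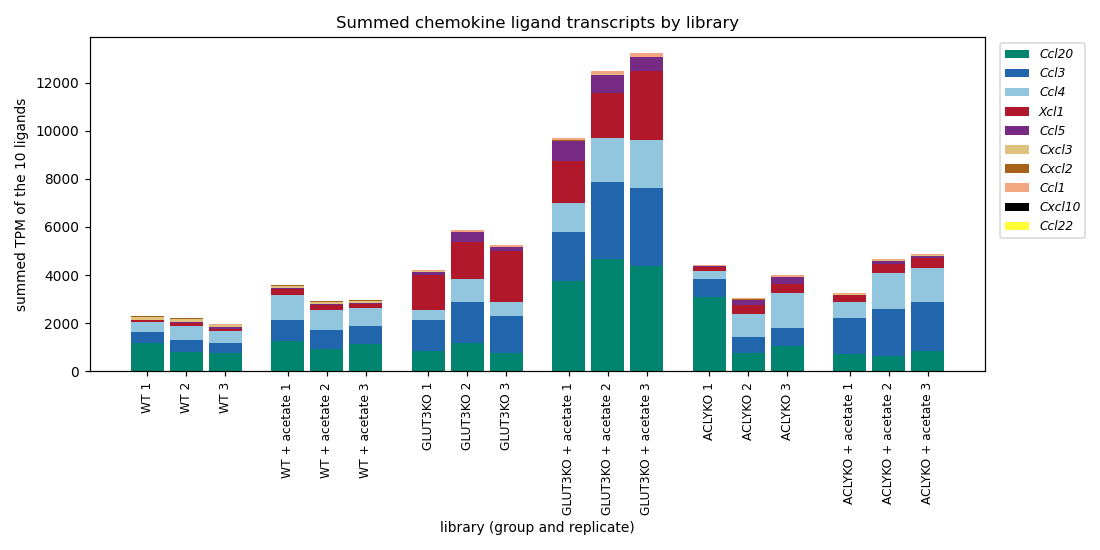
Stacked bars of the TPM of the 10 ligands in each of the 18 libraries (vertical axis, summed TPM; horizontal axis, library by group and replicate). The tallest bars are the 3 GLUT3KO libraries with acetate, 9715 to 13232 TPM, and the tall Ccl20 block of ACLYKO replicate 1 sets it apart from replicates 2 and 3.

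Differences were tested with limma on log2(TPM + 1) over all 14229 genes and called at a Benjamini-Hochberg adjusted p under 0.05. Fold values are ratios of mean TPM, whereas a log2 change, given with its standard error (SE), refers to log2(TPM + 1), on which low genes change less. Loss of GLUT3 without acetate changed 6 of the 10 ligands, 4 higher and 2 lower, where 33.4% of all genes were called (24.9% higher, 8.47% lower). Loss of ACLY without acetate changed 7, 5 higher and 2 lower, against 19.1% of all genes (12.7% higher, 6.38% lower). That count includes Ccl22, which entered the test only through the ACLYKO libraries where it is high. The knockouts share the WT libraries as controls. The median log2 change of the 10 members was 0.18 under GLUT3 loss, beside 0.17 for all genes, and 0.78 under ACLY loss, beside 0.03. Under median-ratio scaling the median of all genes for GLUT3 loss moved from 0.17 to -0.02, and the members' count stayed at 6. Of the genes called there, 74.6% were higher, and 54.1% under that scaling. For ACLY loss this share was 66.6%, and 52.6% under median-ratio scaling. With acetate in all cultures, loss of GLUT3 changed 7 members (5 higher, 2 lower), where 30.4% of all genes were called (20.9% higher, 9.5% lower), and loss of ACLY 3 (2 higher, 1 lower), where 13.5% were (11.5% higher, 1.98% lower). Ccl22 is again among the higher members. The latter count was 6 without ACLYKO replicate 1, which takes no part in that contrast. Ccl1 (0.86, adjusted p = 0.028), Ccl20 (-0.60, 0.0463) and Xcl1 were added, with the same log2 changes and smaller SEs. Under median-ratio scaling the share of higher calls went from 68.8% to 57.4% and from 85.4% to 60.6%.

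**Figure D2:**
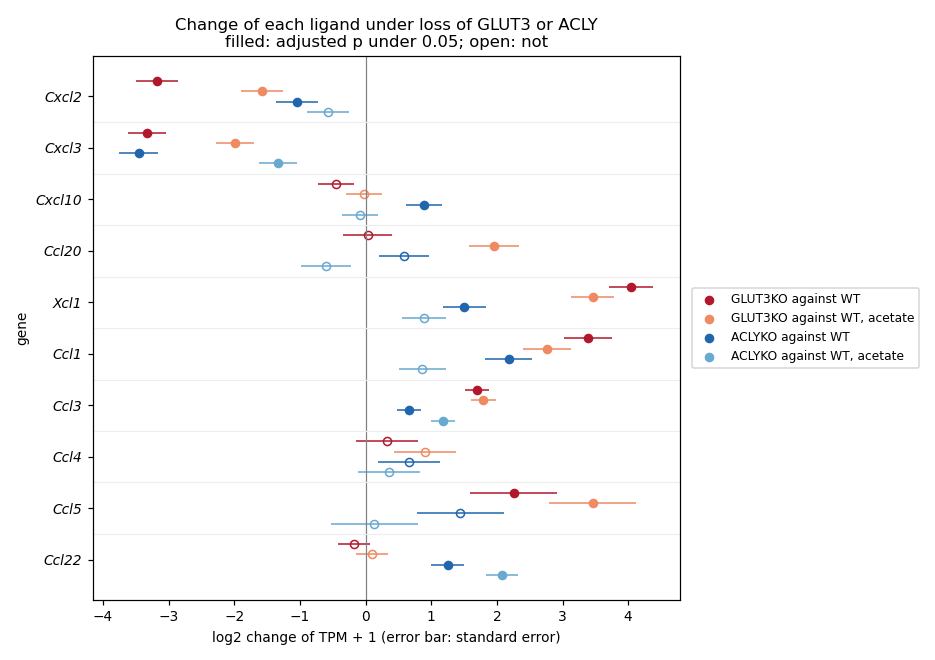
Log2 change of TPM + 1 (horizontal axis, with standard error) of each ligand (vertical axis) in GLUT3KO or ACLYKO against WT, without and with acetate; filled symbols passed an adjusted p of 0.05. Cxcl3 lies below 0 in all 4 comparisons and Xcl1 in GLUT3KO lies at 4.04 without and 3.46 with acetate.

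Cxcl2 and Cxcl3, the neutrophil attractants that bind CXCR2, were lower in both knockouts. Cxcl3 was at 107, 104 and 95.3 TPM in the WT libraries, at 10.7, 7.28 and 10.02 in GLUT3KO and at 4.13, 11.4 and 11.9 in ACLYKO. Every knockout library was below every WT library, and the knockouts overlapped each other. Cxcl3 was 10.9-fold lower in GLUT3KO (log2 change -3.33, SE 0.29, adjusted p = 7.89e-07) and 11.1-fold lower in ACLYKO (log2 change -3.46, SE 0.29, adjusted p = 1.99e-06). Between GLUT3KO and ACLYKO the difference was 0.12 (SE 0.29, adjusted p = 0.775), an SE larger than the difference. Without 5 libraries that stood apart, listed at the end, it was -0.61, with 1 GLUT3KO library left.

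Cxcl2, a close relative with the same receptor, was at 43.7, 40.4 and 26.3 TPM in WT, 3.31, 2.39 and 3.72 in GLUT3KO and 17.5, 18.7 and 14.9 in ACLYKO. The 3 groups did not overlap, and GLUT3KO was the lowest. Cxcl2 fell 11.7-fold in GLUT3KO (log2 change -3.17, adjusted p = 3.00e-06) and 2.16-fold in ACLYKO (log2 change -1.04, adjusted p = 0.0333). The ACLYKO call ended without WT replicate 1 (adjusted p = 0.0928), WT replicate 2 (0.113) or ACLYKO replicate 3 (0.0722). It also ended in the fit of only WT and ACLYKO (0.0993). Cxcl2 was lower in GLUT3KO than in ACLYKO by a test of that difference, 5.42-fold (log2 change -2.13, adjusted p = 9.39e-05). Neutrophils also make Cxcl2. Their markers summed to at most 3.71 TPM in any library, Csf3r reached at most 0.0182 TPM, and none of the 5 passed the filter.

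With acetate Cxcl3 was higher in both knockouts. Cxcl3 with acetate was at 78.2, 84.8 and 82.8 TPM in WT, 25.04, 14.9 and 20.98 in GLUT3KO and 25.5, 34.5 and 36.9 in ACLYKO. In WT all 3 libraries with acetate lay below all 3 without it, but the change did not pass (log2 change -0.31, adjusted p = 0.638). In the knockouts the acetate libraries all lay above, 3.53-fold in ACLYKO (log2 change 1.81, adjusted p = 0.000541) and 2.18-fold in GLUT3KO (log2 change 1.03, adjusted p = 0.033). The ACLYKO call ended in the fit of only ACLYKO without and with acetate (adjusted p = 0.0851). The GLUT3KO call ended in 5 of the fits that leave out 1 library, and without GLUT3KO acetate replicate 1 the change was 0.87 (adjusted p = 0.127). The acetate change in ACLYKO exceeded that in WT by 2.12 (SE 0.41, adjusted p = 0.0201), the single member called in that comparison, where 1.34% of all genes were (0.78% higher, 0.562% lower). This call ended in 7 of the 18 fits that leave out 1 library, with adjusted p from 0.0504 to 0.0691, and in the fit of only the 4 groups compared (0.0753). In GLUT3KO the acetate change exceeded that in WT by 1.34 (adjusted p = 0.241), which did not pass. Without ACLYKO replicate 1, which takes no part in that contrast, its adjusted p was 0.0137. With acetate Cxcl3 was still lower than in WT with acetate, 4.04-fold in GLUT3KO and 2.54-fold in ACLYKO (adjusted p = 0.000112 and 0.00681).

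Cxcl2 with acetate was at 13.5, 4.29 and 7.66 TPM in GLUT3KO, all above the 3 libraries without it (log2 change 1.09, adjusted p = 0.0377). The call ended in 8 of the fits that leave out 1 library, and without GLUT3KO acetate replicate 1 the change was 0.72 with an adjusted p of 0.163. In WT and ACLYKO the Cxcl2 libraries with and without acetate overlapped.

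Ccl20 encodes the ligand of CCR6. Without acetate it was at 1163, 817 and 753 TPM in WT, 849, 1186 and 756 in GLUT3KO and 3089, 756 and 1041 in ACLYKO. The WT and GLUT3KO ranges coincided (log2 change 0.03, SE 0.38, adjusted p = 0.964). ACLYKO replicate 1 was higher than any WT library, and the ACLYKO change of 0.59 (adjusted p = 0.305) was -0.01 without it (adjusted p = 0.981).

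In GLUT3KO with acetate it stood at 3739.6, 4676 and 4392 TPM, the highest group mean of any member (4269 ± 480.04 TPM). It rose 4.59-fold against GLUT3KO without acetate (log2 change 2.22, SE 0.38, adjusted p = 0.00165), and it kept its call in every alternative run. Against WT with acetate it was 3.87-fold higher (log2 change 1.95, adjusted p = 0.00114). In WT acetate gave 1239, 928 and 1145 TPM, overlapping the untreated libraries (log2 change 0.29, adjusted p = 0.741). In ACLYKO it gave 705, 636 and 837 TPM (log2 change -0.90, adjusted p = 0.124; -0.30 without ACLYKO replicate 1, and -1.31 with an adjusted p of 0.0207 without replicate 2). The acetate change in GLUT3KO exceeded that in WT by 1.93 (SE 0.54), with an adjusted p of 0.161 over all genes, so the difference between genotypes did not pass. Without ACLYKO replicate 1, which takes no part in that contrast, the SE was 0.29 and the adjusted p 0.00473, and in the fit of only the 4 groups compared 0.0176. No member was called in that comparison (limma), where 0.773% of all genes were (0.225% higher, 0.548% lower). Cxcl3 and Ccl20 were called there without ACLYKO replicate 1.

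Xcl1, whose product attracts dendritic cells carrying XCR1, had the largest log2 change of the members under loss of GLUT3 without acetate. It was at 79.9, 146 and 86.7 TPM in WT, 1468, 1522 and 2094 in GLUT3KO and 162, 376 and 387 in ACLYKO. The 3 groups did not overlap. Xcl1 rose 16.3-fold in GLUT3KO (log2 change 4.04, SE 0.33, adjusted p = 4.24e-07) and 2.96-fold in ACLYKO (log2 change 1.51, SE 0.33, adjusted p = 0.0054). The first call held in every alternative run, and the second ended in the fit of only WT and ACLYKO (adjusted p = 0.147). GLUT3KO exceeded ACLYKO 5.50-fold (log2 change 2.54, adjusted p = 2.72e-05). With acetate the levels were 242, 191 and 152 TPM in WT, 1746, 1872 and 2879.7 in GLUT3KO and 291, 395 and 388 in ACLYKO. All 3 WT libraries with acetate lay above those without it, but neither WT (log2 change 0.92, adjusted p = 0.128) nor a knockout passed the test for acetate. The WT change passed without ACLYKO replicate 1 (adjusted p = 0.0243). Xcl1 in ACLYKO against WT, both with acetate, differed by 0.89 (adjusted p = 0.1005), and without that library by the same amount with an adjusted p of 0.0208.

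Ccl1, the ligand of CCR8, followed the same order of groups at lower levels. It was at 5.20, 8.63 and 4.36 TPM in WT, 51.7, 88.6 and 76.8 in GLUT3KO and 15.2, 40.7 and 43.2 in ACLYKO. Each group was clear of the next. Ccl1 rose 11.9-fold in GLUT3KO (log2 change 3.39, adjusted p = 5.16e-06) and 5.44-fold in ACLYKO (log2 change 2.18, adjusted p = 0.000685), the latter lost in the fit of only WT and ACLYKO (adjusted p = 0.0729). GLUT3KO exceeded ACLYKO 2.19-fold (log2 change 1.21, adjusted p = 0.0148), but without ACLYKO replicate 1 the difference was 0.74 (adjusted p = 0.0513). With acetate Ccl1 was at 21.1, 16.3 and 17.5 TPM in WT, all above the untreated libraries (3.01-fold, log2 change 1.49, adjusted p = 0.0233). That call ended in 5 of the fits that leave out 1 library, with adjusted p up to 0.094. In GLUT3KO with acetate it was at 106, 145 and 139.8 TPM, again all above, with an adjusted p of 0.132 (0.0276 without ACLYKO replicate 1). The block by genotype and replicate number, which treats same-numbered cultures without and with acetate as pairs, gave 0.0326. The acetate change in ACLYKO minus that in WT was -1.32 (adjusted p = 0.316), and -1.79 without ACLYKO replicate 1 (adjusted p = 0.0308).

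Ccl3, Ccl4 and Ccl5 encode inflammatory chemokines that draw T cells and monocytes, and CCL3 and CCL5 bind CCR1. Ccl3 was the steadiest of the 3: it was at 470, 488 and 437 TPM in WT, 1297, 1688 and 1547 in GLUT3KO and 751, 676 and 775 in ACLYKO. The 3 groups were separate. Ccl3 rose 3.25-fold in GLUT3KO (log2 change 1.69, adjusted p = 5.79e-06) and 1.58-fold in ACLYKO (log2 change 0.66, adjusted p = 0.0207). The ACLYKO call ended without WT replicate 3 (adjusted p = 0.0771) and in the fit of only WT and ACLYKO (0.163). GLUT3KO exceeded ACLYKO 2.06-fold (log2 change 1.03, adjusted p = 0.000387).

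Ccl3 was also the member that acetate raised in all 3 genotypes. With acetate it was at 899, 769 and 744 TPM in WT, 2069, 3215 and 3243 in GLUT3KO and 1509.5, 1955 and 2030.5 in ACLYKO, each above every untreated library of its genotype. It rose 1.73-fold in WT (log2 change 0.79, SE 0.18, adjusted p = 0.0185), 1.88-fold in GLUT3KO (0.89, SE 0.18, adjusted p = 0.00554) and 2.50-fold in ACLYKO (1.31, SE 0.18, adjusted p = 0.000161). The WT call ended in 4 of the fits that leave out 1 library (adjusted p up to 0.0919). The acetate change in GLUT3KO differed from that in WT by 0.10 (SE 0.26) and that in ACLYKO by 0.52 (SE 0.26, adjusted p = 0.493), so no difference between genotypes passed.

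Ccl4 was near Ccl3 in WT and more scattered in the knockouts. Without acetate Ccl4 was at 405, 556 and 488 TPM in WT, 381, 962 and 595 in GLUT3KO and 325, 943 and 1429 in ACLYKO, with overlapping groups. Neither loss of GLUT3 (log2 change 0.33, SE 0.48, adjusted p = 0.629) nor loss of ACLY (0.66, SE 0.48, adjusted p = 0.356) passed. Without ACLYKO replicate 1 the ACLY change was 1.27 with an adjusted p of 0.0308. With acetate Ccl4 was at 1022, 854 and 750.3 TPM in WT, 1191, 1805 and 1988 in GLUT3KO and 645, 1475 and 1439.7 in ACLYKO. In GLUT3KO the change of 1.43 (SE 0.48) had an adjusted p of 0.0624, 0.00994 without ACLYKO replicate 1 and 0.00784 with the block by genotype and number.

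Ccl5, a late product of activated T cells, was at 32.2, 54.3 and 57.3 TPM in WT, 154, 434 and 173 in GLUT3KO and 35.3, 206 and 282 in ACLYKO. It rose 5.29-fold in GLUT3KO (log2 change 2.26, SE 0.66, adjusted p = 0.0166), a call lost without WT replicate 1 (adjusted p = 0.0521) or GLUT3KO replicate 2 (0.0679). In ACLYKO the change of 1.44 (SE 0.66, adjusted p = 0.149) did not pass, and without ACLYKO replicate 1 it was 2.35 (adjusted p = 0.00468). With acetate Ccl5 was at 824, 773 and 559 TPM in GLUT3KO against 65.4, 63.9 and 61.4 in WT, an 11.3-fold difference (log2 change 3.46, adjusted p = 0.00102). Against GLUT3KO without acetate all 3 were higher (log2 change 1.64, adjusted p = 0.119; 0.0193 without ACLYKO replicate 1 and 0.0158 with the block by genotype and number). In ACLYKO with acetate it was at 29.2, 125 and 92.2 TPM, overlapping the untreated libraries (log2 change -0.86, adjusted p = 0.403). Without ACLYKO replicate 1 the change was -1.77 (adjusted p = 0.0273).

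**Figure D3:**
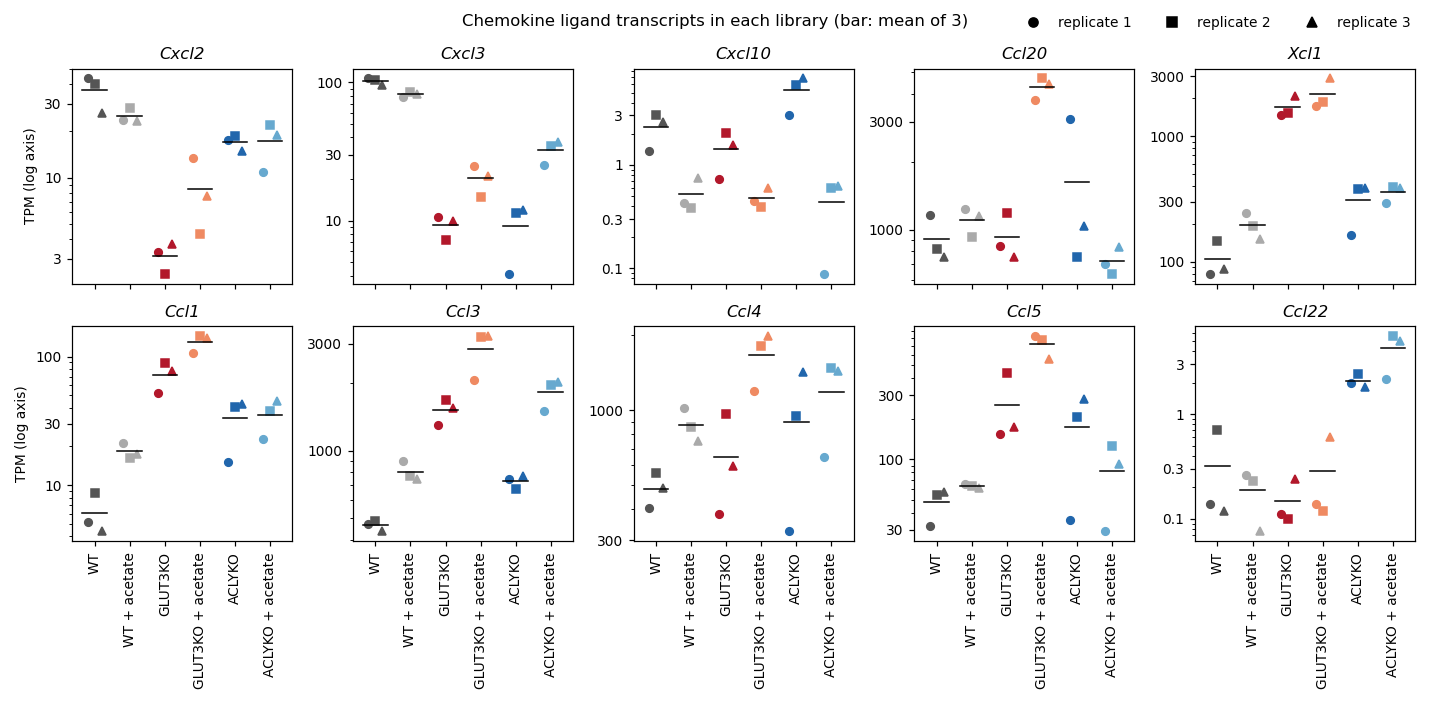
TPM of each ligand (vertical axis, log scale) in the 3 libraries of each group (horizontal axis); circles, squares and triangles are replicates 1, 2 and 3 and bars the group means. ACLYKO replicate 1 is low for Ccl1, Ccl4 and Ccl5 and high for Ccl20, and Ccl22 is above 1 TPM in the 6 ACLYKO libraries and in no other.

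Cxcl10, an interferon-induced ligand of CXCR3, was low throughout: 1.36, 3.05 and 2.58 TPM in WT, 0.724, 2.03 and 1.57 in GLUT3KO and 3.03, 5.91 and 6.86 in ACLYKO. ACLYKO overlapped WT, and the call of its change of 0.89 (adjusted p = 0.0342) ended in 4 of the fits that leave out 1 library, by adjusted p up to 0.119. That call also ended in the fit of only WT and ACLYKO (0.2675). With acetate Cxcl10 was at 0.428, 0.381 and 0.745 TPM in WT, 0.451, 0.393 and 0.603 in GLUT3KO and 0.0886, 0.604 and 0.632 in ACLYKO, or 1 to 12 reads a library. In each genotype these lay below every untreated library. The fall passed in WT (log2 change -1.11, adjusted p = 0.0265) and ACLYKO (-2.09, adjusted p = 9.54e-05) and missed the threshold in GLUT3KO (-0.68, adjusted p = 0.118). Cxcl10 entered the test only through libraries without acetate, where it is high. The filter thus favoured a fall, and these changes with acetate are given as a description. The GLUT3KO fall passed without ACLYKO replicate 1 (adjusted p = 0.0419), with the replicate block by number (0.0222) and under quantile normalization (0.0274). Without the 5 libraries that stood apart, which leaves 1 GLUT3KO library without acetate, the GLUT3KO change was -1.03. At such counts the size depends on the added constant: in ACLYKO it was -0.90 with 5 in place of 1 and -3.47 with 0.1. The WT call ended in 5 of the fits that leave out 1 library.

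Ccl22, a ligand of CCR4, was at 1.98, 2.46 and 1.82 TPM in ACLYKO and at 2.16, 5.63 and 5.06 with acetate (29 to 138 reads a library). The 12 other libraries held 0.0755 to 0.702 TPM, or 2 to 14 reads. Because Ccl22 entered the test through the group where it is high, its difference from WT is given as a description: the log2 change was 1.25 without acetate and 2.08 with it. These sizes depend on the added constant, at 0.41 and 0.82 with 5 and 2.65 and 3.88 with 0.1. In ACLYKO the acetate change of 0.71 had an adjusted p of 0.0616, and 0.0435 with the block by genotype and number. Dendritic cell markers, of cells that make much Ccl22, summed to 0.216 to 0.743 TPM in ACLYKO and 0.833 to 1.44 with acetate, against 0.451 to 0.574 in WT and 0.821 to 1.04 in WT with acetate. The sums were highest in GLUT3KO, 1.34 to 2.05 without and 1.73 to 2.00 with acetate, where Ccl22 was low. Of those 6, Siglech was at 0 in all libraries and 1, Zbtb46, was tested. Their part in the result was not tested.

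Counted over the members, acetate changed 3 of 10 in WT (2 higher, 1 lower), where 6.5% of all genes were called (4.22% higher, 2.28% lower). It changed 4 in GLUT3KO, all higher, against 12.7% of all genes (4.86% higher, 7.89% lower). It changed 3 in ACLYKO (2 higher, 1 lower), against 17.3% (11.7% higher, 5.6% lower). The lower member in WT and in ACLYKO is Cxcl10, which entered the test only through libraries without acetate, where it is high. Under median-ratio scaling the share of all called genes that were higher went from 38.1% to 58.8% in GLUT3KO and from 67.6% to 56.9% in ACLYKO. With the block by genotype and number the GLUT3KO count was 7, all higher. It was 8, 7 higher, without ACLYKO replicate 1. GLUT3KO and ACLYKO without acetate differed in 6 members, 3 each way, where 40.4% of all genes did (25.2% higher in GLUT3KO, 15.2% lower). Xcl1, Ccl1 and Ccl3 were higher in GLUT3KO, and Cxcl2, Cxcl10 and Ccl22 in ACLYKO, the last again tested only because it is high there.

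**Figure D4:**
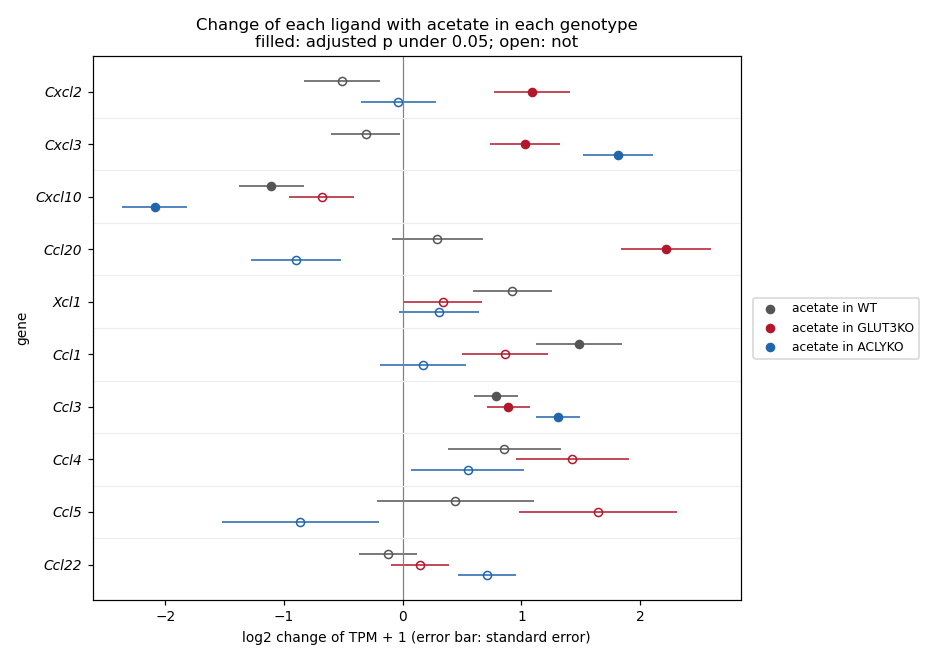
Log2 change of TPM + 1 with acetate (horizontal axis, with standard error) of each ligand (vertical axis) in WT, GLUT3KO and ACLYKO; filled symbols passed an adjusted p of 0.05. Ccl3 is filled in all 3 genotypes, and Ccl20 is filled in GLUT3KO, at 2.22, and open in WT and ACLYKO.

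Other lymphocytes make several of these ligands. The 4 NK cell markers summed to 0.276 to 0.469 TPM in WT, 1.601 to 3.87 in GLUT3KO and 5.00 to 11.3 in GLUT3KO with acetate. In WT with acetate they summed to 0.711 to 1.89, in ACLYKO to 0.672 to 2.17 and with acetate to 1.35 to 2.201. Klre1 was the 1 tested and none was at 0 in all libraries; Ncr1 reached at most 0.610 TPM. NK markers were thus higher in GLUT3KO beside Xcl1, Ccl1, Ccl3 and Ccl5, and their part in the result was not tested. The 2 CD8 markers, both tested, summed to 11.6 to 13.01 TPM in WT and 10.1 to 12.1 in GLUT3KO, and with acetate to 14.7 to 16.4 and 13.6 to 19.9. In ACLYKO they summed to 3.98 to 8.71 and with acetate to 15.4 to 17.7. Mast cell and basophil markers (1 of 4 tested) reached 13.7 TPM in GLUT3KO replicate 3 and 17.9 in its acetate culture, against at most 2.11 elsewhere. Without GLUT3KO replicate 3 the GLUT3 loss changes were 3.88 for Xcl1, 3.33 for Ccl1, 1.67 for Ccl3 and 2.45 for Ccl5, and all 4 calls held. Macrophage and monocyte markers (2 of 9 tested, C1qa and C1qb at 0 in all libraries) summed to 1.62 to 3.22 TPM in WT. In GLUT3KO they summed to 3.54 to 4.01 and in ACLYKO to 4.40 to 9.65. With acetate the sums were 3.82 to 3.90 in WT, 2.68 to 7.55 in GLUT3KO and 6.71 to 8.31 in ACLYKO. B cell markers (1 of 5 tested) summed to 0.257 to 0.621 in WT, 0.527 to 0.981 in GLUT3KO and 0.631 to 1.99 in ACLYKO. With acetate these were 1.42 to 1.56, 1.30 to 3.16 and 4.24 to 5.61. The part of either in the Ccl22 result was not tested. Platelet markers (1 of 3 tested) reached 8.47 TPM in GLUT3KO and 9.11 with acetate, against at most 2.33 in the other groups.

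Receptors of these ligands were read in the same cells. Of 8 receptor genes 6 were tested, while Cxcr2 and Xcr1 reached at most 0.0681 and 0.0781 TPM. Acetate raised 6 of 6 in GLUT3KO, 5 in ACLYKO and 3 in WT (Cxcr3, Ccr8 and Ccr6; 5 under median-ratio scaling), and lowered none. Of all genes, 12.7%, 17.3% and 6.5% were called in these comparisons. The 6 include Ccr3, at 1.81 ± 0.221 TPM in GLUT3KO with acetate and 0.549 ± 0.218 without. Ccr3 entered the test only through GLUT3KO with acetate, where it is high, so the filter favoured that call. Ccr6, the receptor for Ccl20, went from 47.9 ± 8.02 to 89.6 ± 3.81 TPM in WT and from 21.3 ± 4.99 to 122 ± 11.9 in ACLYKO, whose change exceeded that in WT by 1.58 (adjusted p = 0.00711). Ccr1, the receptor for Ccl3 and Ccl5, went from 3.29 ± 0.877 to 14.4 ± 1.86 TPM in GLUT3KO, exceeding the change in WT by 1.34 (adjusted p = 0.00885), a call lost with voom on recovered reads. Without acetate, loss of GLUT3 raised 1 of the 6 and lowered 1, and loss of ACLY raised none and lowered 2, beside 33.4% and 19.1% of all genes.

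Among 28 other chemokine ligand genes 5 passed the filter: Cxcl5, Cxcl16, Pf4, Ccl9 and Ccl25. Ccl9, another CCR1 ligand, was at 0.738 ± 0.0861 TPM in WT, 10.2 ± 4.44 in GLUT3KO and 61.1 ± 29.1 in GLUT3KO with acetate. It rose with loss of GLUT3 (log2 change 2.61, adjusted p = 7.48e-05) and, within GLUT3KO, with acetate (2.42, adjusted p = 0.000727). Cxcl16, the ligand of CXCR6, was at 8.68 ± 1.69 TPM in WT, 18.1 ± 0.506 in GLUT3KO and 5.07 ± 1.43 in ACLYKO, higher under GLUT3 loss (adjusted p = 0.000902) and lower under ACLY loss (0.0198). Cxcl5, another CXCR2 ligand, was near the floor. Without acetate it was lower in both knockouts, from 0.868 ± 0.298 TPM to 0.0959 ± 0.0674 in GLUT3KO and 0.0689 ± 0.119 in ACLYKO (limma, adjusted p = 0.0101 and 0.013). Cxcl5 entered the test through libraries other than the untreated knockouts. The filter thus favoured this fall, which is given as a description. With acetate Cxcl5 averaged 1.33 ± 0.371 TPM in WT, 0.681 ± 0.306 in GLUT3KO and 1.58 ± 0.748 in ACLYKO. Of the remaining 23 genes, 7 were listed at 0 in all libraries.

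Factors that drive chemokine genes were read from lists. Of 16 NF-kB and NFAT genes, loss of GLUT3 raised 7 (among them Nfatc1, Nfatc2, Nfkb2, Rel and the NFAT target Rcan1) and lowered 2, where 33.4% of all genes were called. Under median-ratio scaling and under quantile normalization it raised 3 and lowered 3, and with voom it raised 4 and lowered 3. The 2 were Nfkbid, from 93.0 ± 3.01 to 20.8 ± 2.84 TPM, and Nfkbia, from 301 ± 64.5 to 188 ± 41.0 TPM, which encode I-kappa-B proteins. Loss of ACLY raised 1, Rcan1, and lowered 4 (19.1% of all genes were called), and without the 5 libraries that stood apart it raised 6 and lowered 4. Acetate raised 1 and lowered none in WT, raised 2 and lowered 2 in GLUT3KO (7 and 1 under median-ratio scaling) and raised 5 and lowered 1 in ACLYKO, beside 6.5%, 12.7% and 17.3% of all genes. The list's median log2 change was 0.42 under GLUT3 loss and 0.00 under ACLY loss, beside 0.17 and 0.03 for all genes. Of 8 tested interferon and T-box factors, loss of GLUT3 raised 4 and lowered 1 (33.4% of all genes were called), and loss of ACLY raised 5 (19.1%; 4 raised and 1 lowered under quantile normalization). Tbx21, the T-bet gene of the Th1 program, went from 4.30 ± 0.401 to 20.9 ± 5.72 TPM in GLUT3KO, and acetate raised it in all 3 genotypes. Irf7, an interferon-induced factor, went from 0.0617 ± 0.0135 TPM in WT to 15.8 ± 5.73 in ACLYKO and to 1.05 ± 0.483 there with acetate. Cxcl10 was likewise lower in ACLYKO with acetate than without. In ACLYKO with acetate Cxcl10 (0.441 TPM) was below untreated WT (2.33 TPM), whereas Irf7 was above untreated WT. Against WT with acetate (0.518 TPM) Cxcl10 overlapped (limma, log2 change -0.09, adjusted p = 0.872). Of 8 genes for mRNA decay, which shortens the life of many chemokine transcripts, loss of GLUT3 raised 2 and lowered 1, a share near the 33.4% of all genes, and loss of ACLY raised 1 and lowered 1. Under median-ratio scaling GLUT3 loss raised 1 and lowered 4. Of 6 Th17 factors, loss of GLUT3 raised 3 and lowered 1 and loss of ACLY changed 1 each way, or 1 higher and 3 lower under median-ratio scaling, beside the same 33.4% and 19.1% of all genes.

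Genes with the most similar pattern were taken by Pearson's r of log2(TPM + 1) over the 18 libraries, which share 6 groups, among genes with a mean of at least 5 TPM in some group. For Xcl1 they were Klrc1 (r = 0.981), Prf1 (0.981) and Bach1 (0.974), and for Ccl1 Ifng (0.970), Bach1 (0.959) and Dusp1 (0.955). Ifng averaged 44.2 TPM in WT, 877 in GLUT3KO and 2339 in GLUT3KO with acetate. Nearest to Ccl3 were Mov10 (0.969) and Car13 (0.944), to Ccl4 Snap47 (0.920), Ccrl2 (0.918) and Gstt2 (0.917), and to Ccl5 Maff (0.962), Msmo1 (0.955) and Tlcd3a (0.953). Cxcl2 was closest to Rrp9 (0.918), Pus7 (0.911) and Wdr75 (0.901), and Cxcl3 to Ercc8 (0.923), Klk8 (0.892) and Arhgdig (0.883). Cxcl10 lay nearest Cox6a2 (0.917), Lipo2 (0.908) and Pole4 (0.904). For Ccl20 the nearest were Myl12a (0.872), Chaserr (0.836) and Chuk (0.834), with Spearman's rho of 0.575, 0.538 and 0.662, lower than r. Ccl22, under 5 TPM in every group, was not given a list.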

How the data were processed

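Per the labels' protocols, stranded mRNA libraries were made from 500 ng RNA (RIN over 7.8) and sequenced as 75 nt single reads. The submitters' processing notes list, without roles, the build GRCm38.p6, the aligner STAR 2.7.2b, the counter featureCounts 1.6.4 and also bcl2fastq 2.20.0.422 and cutadapt. The deposited table gives TPM, made by the authors and recorded as an other unit than counts because of its decimal commas, beside the summed exon bases per gene, likewise an other unit. TPM times exon length fell on whole reads (within 0.01 reads, for values under 500 reads) in 100% of values. 

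Group means of log2(TPM + 1) were fitted with limma 3.58.1 (R 4.3.3) over 18 libraries, with a trended, robust prior, on genes at 1 TPM or more in at least 3 libraries. P-values were Benjamini-Hochberg adjusted over those genes. The code was tested on simulated data. The members and gene lists were chosen with earlier results of these data known. Named genes were the 10 members, members of the lists given, and the 3 genes with the highest r to each member whose groups reach 5 TPM. Alternatives covered the pseudocount, filter, scaling, samples fitted, voom with TMM on recovered reads, a replicate block and each library left out. Same-numbered libraries of 1 genotype without and with acetate deviated together in 9 of 9 pairs (r from 0.120 to 0.548). Across all groups 22 of 45 same-numbered pairs had r over 0.1. The highest was 0.801, between WT and ACLYKO with acetate, replicate 1. Differently numbered libraries were not compared, so pairing of cultures by number is assumed in the block by genotype and number and not shown. Some genes of the lists are not reported here.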

Additional observations from a re-analysis of the deposited data

Results flagged for a closer look

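Cxcl3 differed between ACLYKO and WT in its change with acetate in the main fit. The acetate change in ACLYKO minus that in WT was 2.125 on the log2(TPM + 1) scale and passed a test of the difference itself (limma, adjusted p = 0.0201). That call ended in 7 of the 18 fits that leave out 1 library and in the fit of only the groups compared (limma, adjusted p = 0.0753).

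Every WT library with acetate was lower in Cxcl3 than every WT library without it (log2 change -0.3128). In GLUT3KO (1.031) and in ACLYKO (1.812) every library with acetate was higher than every library without it. Between GLUT3KO and WT the difference of 1.34 was tested and did not pass (limma, adjusted p = 0.241).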

How the results depend on the processing

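Of 100 results for single genes 40 were called, and 26 of these kept their call in every alternative. Of 2930 values compared, 2798 kept their side of the threshold, 68 lost the call, 63 gained one and 1 is counted as reversed. Direction was not compared where neither fit gave a call: Ccl20 under ACLY loss went from 0.59 to -0.01 without ACLYKO replicate 1. The reversed value was Cxcl3 in GLUT3KO against ACLYKO, 0.12 with all libraries and -0.61 without the 5 that stood apart. These were WT replicate 1, GLUT3KO replicates 1 and 3 and replicate 1 of ACLYKO without and with acetate. Leaving them out keeps 1 GLUT3KO library without acetate, replicate 2. On the axis of variance within groups GLUT3KO replicate 3 scored -4.10, between replicates 1 (-31.9) and 2 (36.0). ACLYKO replicate 3, which was kept, scored 53.5. The 5 were set by name, and no rule for their choice is given. Fitting only the groups compared, members called went from 7 to 2 for ACLY loss, 3 to 5 for ACLY loss with acetate, 0 to 2 for the acetate change in GLUT3KO minus WT and 1 to 0 for that in ACLYKO minus WT. Without the 5 libraries they went from 3 to 8 for ACLY loss with acetate, 3 to 5 for acetate in ACLYKO and 1 to 5 for the acetate change in ACLYKO minus WT. A pseudocount of 5 left 1 of 3 for acetate in WT, and no filter on low values left 2 of 4 for acetate in GLUT3KO. The replicate block by genotype and number, and the replicate block by number, each gave 7 for acetate in GLUT3KO. They gave 4 in place of 3 for acetate in ACLYKO, through Ccl22, and changed no other count. Leaving out 1 library at a time gave 3 to 6 members for ACLY loss with acetate, 5 to 9 for ACLY loss, 0 to 4 for acetate in WT, 2 to 8 for acetate in GLUT3KO, and 0 to 2 for each acetate difference between genotypes. The causes were not tested. Over all genes, calls for ACLY loss went from 2715 to 342 in the fit of only the groups compared, and for ACLY loss with acetate from 1925 to 3459. Without ACLYKO replicate 1 calls went from 925 to 2372 for acetate in WT and from 1813 to 4152 for acetate in GLUT3KO. Without the 5 libraries they went from 2715 to 7068 for ACLY loss. Requiring 5 TPM left no value for Cxcl10 and Ccl22. Depth limits these 2 genes, at 1 to 76 and 2 to 138 reads a library.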
